A study of Mus musculus with 9 samples.

Results

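The baseline transcriptome of gastrocnemius after 6 weeks of high-fat feeding was described from the 3 control libraries, out of 9 in the series, chosen by their genotype label. The gastrocnemius is a calf muscle built mainly of fast fibres. The labels call these mice control and state no allele, recombinase, strain, sex or age, and they do not say whether each library came from a separate animal. The error given throughout is therefore the standard deviation (SD) between 3 libraries that may or may not be separate animals. The other 6 libraries carry muscle knockouts of p38 kinases and were not used here. No library came from mice on another diet, so none of the levels below can be read as an effect of the diet.

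A fast fibre contracts by sliding thick myosin filaments along thin actin filaments when calcium binds to troponin. It stores calcium in the sarcoplasmic reticulum and pumps it back with the SERCA pump. Its ATP comes first from phosphocreatine and glycogen breakdown, while slow fibres rely more on mitochondria. Most contractile, calcium handling and metabolic proteins exist as isoforms encoded by separate genes. For proteins with a fast and a slow isoform, the isoform that dominates can mark the fibre type. Many metabolic families listed here instead set a muscle form against liver, brain or ubiquitous forms, which does not tell fibre types apart.

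The deposited values are normalised signal per gene, and they step in units of 1 read. Once an offset of 0.5 reads was removed, all were whole reads within 0.001, which implies 27944409, 26770187 and 25731265 reads in controls 1, 2 and 3. The labels name a MiSeq, an instrument whose usual output is lower than these totals, so the depths, and the counting errors that follow from them, rest on the step size alone. A value of 10 then rests on 246, 253 and 230.2 reads, and counting alone gives it an error of 6.29% to 6.59%. The table held 13179 genes, 12233 of them protein-coding, and 12 genes had no implied read in any control. Values of at least 10 were found for 7347 genes, of at least 100 for 1254, of at least 1000 for 99 and of at least 10000 for 16. Pearson correlations between the libraries, over all genes on the log2(value + 1) scale, were between 0.991 and 0.993. The Y-linked genes Ddx3y, Eif2s3y, Uty and Kdm5d had reads in every control, whereas Xist, the RNA that coats the inactive X chromosome, was not in the table.

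A few genes held much of the signal. The 10 highest genes took 26.5%, 25.8% and 26.9% of the signal of controls 1, 2 and 3 (26.4% ± 0.528, SD, n = 3), the 20 highest took 37.5% ± 0.839 and the 100 highest 54.7% ± 1.04. On average 10 genes held 25% of the signal, 62 genes 50%, 823 genes 75% and 3144 genes 90%. These shares count reads, so a long gene takes more of them than a short gene with the same number of transcripts. After division by exon length, the number of genes that held 50% was 16, and the 10 highest took 39.4%. Restricting the table to nuclear protein-coding genes raised the count to 143.

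Myh4 led the table by value. It encodes the myosin heavy chain of the fastest fibres, type IIb (ENSMUSG00000057003, chromosome 11, 67238029 to 67260446, GRCm38, plus strand). Its deposited value was 54052, 50577 and 52320.1 in controls 1, 2 and 3 (52316 ± 1738, SD, n = 3), or 4.75% ± 0.0514 of the signal. mt-Co1, a mitochondrially encoded subunit of cytochrome oxidase (chromosome MT, 5328 to 6872), measured 55154, 46939 and 53766. Myh4 and mt-Co1 overlapped between libraries, so their order by value is not resolved.

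Acta1, the actin of the skeletal thin filament (ENSMUSG00000031972, chromosome 8, 123891769 to 123894751, minus strand), measured 30601, 30118 and 34257. Atp2a1, the fast calcium pump SERCA1 (ENSMUSG00000030730, chromosome 7, 126445858 to 126463108, minus strand), measured 32539, 30177 and 31792, and the ranges of Acta1 and Atp2a1 also overlapped. Ckm, the muscle creatine kinase that regenerates ATP from phosphocreatine (ENSMUSG00000030399, chromosome 7, 19404776 to 19422841, plus strand), measured 23000.5, 21297 and 23684 and stood below both in every library. The 20 highest genes by value also included Tnnt3, Tnnc2 and Tnni2 of fast troponin, the tropomyosin Tpm1, the fast light chain Myl1, the glycolytic enzyme Aldoa and Pvalb.

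**Figure D1:**
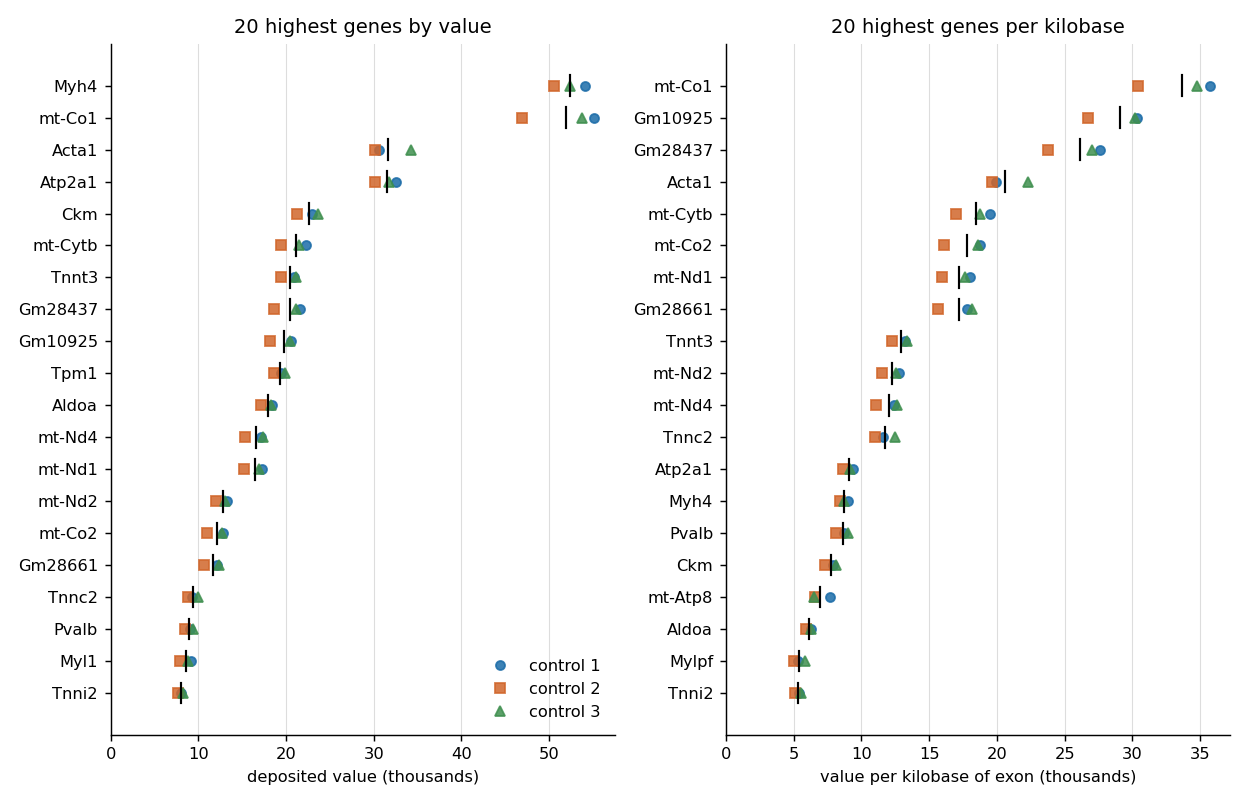
Left, deposited value (divided by 1000) of the 20 genes highest by value; right, value per kilobase of exon (divided by 1000) of the 20 genes highest per kilobase. Each symbol is 1 control library and the black bar is the mean; Myh4 leads on the left (mean 52316) and mt-Co1 on the right (mean 33627 per kilobase), and control 2 is the lowest library for all 20 genes on the left.

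Division by exon length changed that order. Per kilobase of exon, mt-Co1 was highest at 35698, 30381 and 34800.1, the highest nuclear protein-coding gene was Acta1 at 19923, 19608 and 22303, and Tnnt3, the fast troponin T, came next among them at 13224, 12289.7 and 13337. Tnnc2, the calcium-binding fast troponin C, measured 11628, 11032 and 12496 per kilobase, below Tnnt3 in each library. Myh4, with 6016 bases of exon, was at rank 14 per kilobase, with 8985, 8407 and 8697. Pvalb, the calcium buffer parvalbumin of fast fibres (chromosome 15, 78191114 to 78206400), measured 8736, 8103 and 9033 per kilobase, and its range overlapped that of Myh4. Ttn, the giant spring protein of the sarcomere, was rank 25 by value but rank 693 per kilobase.

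Control 2 gave the lowest value for all 20 of the genes highest by value, and control 1 or control 3 the highest, for 11 and 9 genes. The libraries also differed in their totals, and when all 3 were scaled to the same total, control 2 was lowest for 14 of the 20. With scaling by the median ratio it was lowest for 19. Over the 7347 genes with a mean of at least 10, control 2 was lowest for 44.9%, 19.7% and 34.9% under the same 3 scalings. The SD of these 20 genes lay between 3.32% of the mean for Myh4 and 8.46% for mt-Co1.

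To show the control regions beside the highest genes, the 250 bases before the RefSeq start of Myh4, Acta1 and Pvalb are printed, from the RefSeq promoter table (GRCm38.p6), 5′ to 3′ on the strand of the gene. Capitals mark the matches to 4 motifs: the TATA box TATAAA on the strand of the gene, the E-box CAGCTG bound by myogenic factors, the MEF2 site and the CArG box bound by serum response factor. The last 2 were searched on both strands, and the E-box reads the same on both strands. The windows are chr11:67237562-67237811 (plus strand), chr8:123894776-123895025 (minus strand) and chr15:78206401-78206650 (minus strand). For Myh4 and Acta1 the RefSeq start lies upstream of the GENCODE gene coordinates given above, so motif positions do not count from those coordinates.
Myh4 promoter: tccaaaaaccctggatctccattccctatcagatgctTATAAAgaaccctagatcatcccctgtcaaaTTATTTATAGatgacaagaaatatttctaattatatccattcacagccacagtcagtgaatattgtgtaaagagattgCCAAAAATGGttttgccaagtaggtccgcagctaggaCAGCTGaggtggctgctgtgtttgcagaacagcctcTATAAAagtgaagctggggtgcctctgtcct
Acta1 promoter: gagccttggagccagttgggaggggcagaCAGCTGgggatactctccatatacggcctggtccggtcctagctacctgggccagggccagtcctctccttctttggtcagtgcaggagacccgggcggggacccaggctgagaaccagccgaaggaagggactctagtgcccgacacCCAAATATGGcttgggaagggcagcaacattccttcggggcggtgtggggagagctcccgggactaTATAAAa
Pvalb promoter: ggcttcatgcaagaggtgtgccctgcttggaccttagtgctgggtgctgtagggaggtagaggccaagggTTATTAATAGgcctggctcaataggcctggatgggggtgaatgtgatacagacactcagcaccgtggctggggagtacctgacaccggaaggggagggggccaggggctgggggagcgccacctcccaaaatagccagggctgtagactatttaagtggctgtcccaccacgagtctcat

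The Myh4 window held all 4 motifs, with TATAAA at positions -213 and -31 from the RefSeq start, the MEF2 site at -182, the CArG box at -104 and the E-box at -67. The Acta1 window held the CArG box at -73, the E-box at -221 and TATAAA at -7, and the Pvalb window held a MEF2 site at -180. Of the 4 motifs, the Ckm and Atp2a1 windows held only the E-box, at -249 and -55. Both RefSeq starts lie inside the GENCODE gene coordinates given above, so these positions do not count from those coordinates either. The whole Ckm window, chr7:19410844-19411093, lies inside them. Windows were matched for 76 of the 100 nuclear protein-coding genes highest by value. CAGCTG was present in 31.6% of these windows, in 11.8% of the 9597 windows of protein-coding genes in the table and in 13.0% of all 32851 windows. The MEF2 site was present in 10.5%, 1.79% and 2.92% of the same sets and the CArG box in 6.58%, 1.18% and 1.47%. TATAAA was present in 5.26%, 3.95% and 7.59%, and the GC box GGGCGG, searched on both strands, in 48.7%, 59.6% and 32.7%. The matches are descriptions of letters in these windows, with no test, and they do not show that a factor binds there.

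Genes of the mitochondrial chromosome gave 14.1%, 13.1% and 13.9% of the signal (13.7% ± 0.522), of which the 13 proteins gave 13.2% ± 0.506 and the ribosomal RNAs 0.519% ± 0.0239. These 13 proteins are subunits of respiratory complexes I, III, IV and V, and the libraries were made from polyadenylated RNA, which does not recover ribosomal RNA in proportion. Of the 20 highest genes by value, 6 were mitochondrial and 3 more, Gm28437, Gm10925 and Gm28661, were nuclear pseudogene copies of mitochondrial genes. The copies stand in a row on the minus strand of chromosome 1 between 24611535 and 24616197. Gm28437 (783 bases) is contained letter for letter in mt-Co3 (784 bases), so a 51-base read cannot tell them apart. Their opening 51 bases, from the GENCODE M21 transcripts, are shown because they are the length of 1 read and hold no differing base.
mt-Co3: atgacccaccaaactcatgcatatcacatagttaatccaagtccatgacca
Gm28437: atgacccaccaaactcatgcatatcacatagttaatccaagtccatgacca

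Between these indistinguishable sequences the deposited table gave most of the signal to the copy. Gm28437 measured 21596, 18589 and 21149 and mt-Co3, a core subunit of cytochrome oxidase, 1679, 1474 and 1297, so the copy held 92.8%, 92.7% and 94.2% of their sum. Gm10925 held 87.1%, 87.7% and 87.6% of its sum with mt-Atp6, a subunit of ATP synthase. Gm28661 held 48.6%, 49.2% and 49.3% of its sum with mt-Co2. Gm29216, the copy of part of mt-Co1, had no implied read in any control, although 97.1% of its 51-base windows also occur in mt-Co1. The copies hold 99.9%, 99.5% and 99.5% of the 51-base windows of mt-Co3, mt-Atp6 and mt-Co2. For mt-Nd3 and mt-Nd4l they hold 98.0% and 98.8%. How reads were divided within these pairs is therefore not informative about gene or copy, and only their sum can be read. Gm29216 holds 28.7% of the windows of mt-Co1, and Gm28439 62.2% of those of mt-Nd4. The rest of mt-Co1 and mt-Nd4 is not shared with these copies.

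With the copies added, mitochondrial genes took 19.4%, 18.0% and 19.2% of the signal (18.9% ± 0.741). Per kilobase and with copies, mt-Co2 measured 34932 ± 2848, mt-Co1 33627 ± 2846, mt-Atp6 33118 ± 2376 and mt-Co3 27969.5 ± 2127 (SD, n = 3), so the first 3 differed by less than their spread. mt-Cytb of complex III and mt-Nd1 of complex I followed at 18427 ± 1307 and 17206 ± 1118 per kilobase. The remaining complex I subunits descended from mt-Nd4 (14232.5) and mt-Nd2 (12294.5) to mt-Nd3 (7813), mt-Nd4l (4363) and mt-Nd5 (3631). The lowest was mt-Nd6, at 145 ± 15.1 per kilobase, the only protein gene of the other strand. Whether the selection of polyadenylated RNA recovers mt-Nd6 as well as the other mitochondrial genes was not tested.

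**Figure D2:**
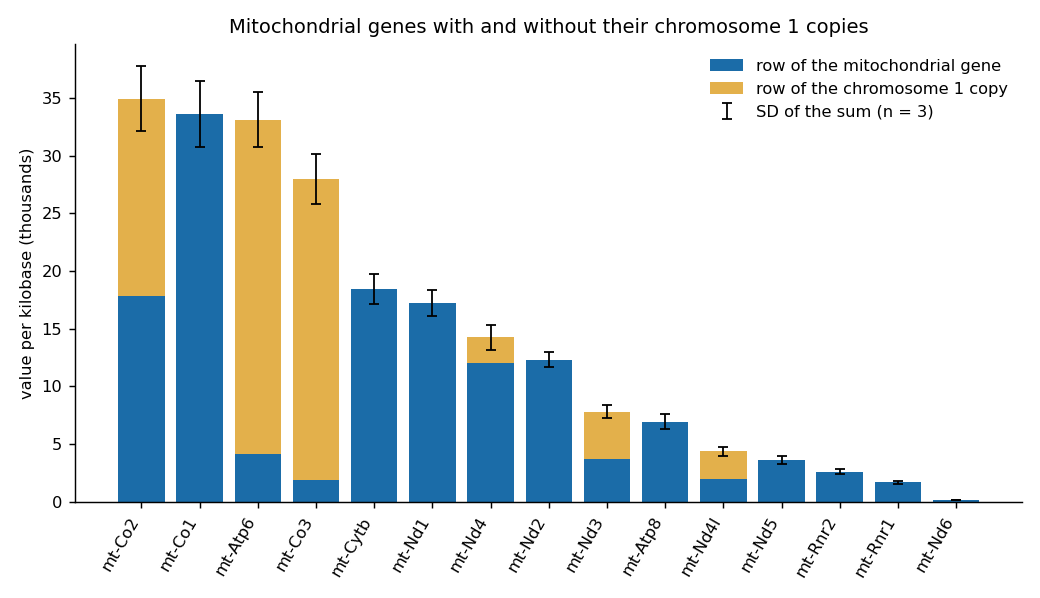
Mean value per kilobase (divided by 1000, n = 3 control libraries) of each mitochondrial gene, split into the row of the gene (blue) and the row of its chromosome 1 copy (yellow); error bars are the SD of the sum. Most of mt-Co3 and mt-Atp6 is listed under the copies, and the sums of mt-Co2, mt-Co1 and mt-Atp6 overlap.

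Among the 9 sarcomeric myosin heavy chains, Myh4 made up 87.6%, 91.6% and 89.8% of the family total per kilobase in controls 1, 2 and 3 (89.6% ± 2.02). Myh1, the IIx chain, made up 8.05%, 4.70% and 7.09%, Myh2, the IIa chain, 3.31% ± 0.526, and Myh7, the slow chain, 0.432%, 0.594% and 0.175%. The other members were near zero on the same scale: the cardiac Myh6, Myh7b, the embryonic Myh3, the neonatal Myh8 and Myh13 each averaged 0.00611% of the family or less. The opening 60 coding bases of the 4 adult chains, from GENCODE M21 transcripts, show how alike the fast chains are. Capitals mark bases that differ from the base at the same position in Myh4, with no alignment.
Myh4: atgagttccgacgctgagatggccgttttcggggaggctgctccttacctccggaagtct
Myh1: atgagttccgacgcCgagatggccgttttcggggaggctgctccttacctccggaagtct
Myh2: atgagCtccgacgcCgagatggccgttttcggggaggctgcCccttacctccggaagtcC
Myh7: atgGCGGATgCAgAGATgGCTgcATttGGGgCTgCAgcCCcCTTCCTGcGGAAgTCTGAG

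Over these 60 bases, compared position by position, Myh1 differs from Myh4 at 1 base, Myh2 at 4 and Myh7 at 43. Stretches shared with Myh4 stand at shifted positions in Myh7, so its count and capitals overstate how far it differs. Over the whole coding sequence, 13.4% of the 51-base windows of Myh4, 23.5% of those of Myh1 and 22.8% of those of Myh2 occur in at least 1 of the other 3 chains, against 0.209% for Myh7. Reads from those windows could be assigned to either fast chain, so the split between Myh4, Myh1 and Myh2 is less certain than the split between fast and slow. Control 2 had the lowest Myh1 value of the libraries (2739, against 5246 and 4366) and the highest Myh7 value (469.6, against 382 and 146). With the mean transcript length in place of the exon length, the Myh4 share was 85.1%.

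In 12 pairs of a fast and a slow isoform, the slow member made up 1.71%, 1.82% and 1.32% of the summed level per kilobase in controls 1, 2 and 3 (1.62% ± 0.263). With the exon length, 7 of the 12 slow isoforms lay below 1% of their pair, against 6 with the longest transcript and 5 with the mean transcript length or without division by length. Tnni1, the slow troponin I, made up 0.358% ± 0.163 of its pair, Myh7 0.400% ± 0.211, Tnnt1 0.429% ± 0.186, Atp2a2, the slow and cardiac SERCA2 pump, 0.638% ± 0.196, Tnnc1 0.668% ± 0.354, Casq2 0.742% ± 0.0106 and Tpm3 0.936% ± 0.451. The slow light chains and Myoz2, a Z-disc protein, were somewhat higher, with Myl2 at 2.07% ± 0.591, Myl3 at 2.56% ± 0.573 and Myoz2 at 3.20% ± 0.311. For 6 pairs another length moved the slow share by over 1.5 times. The mean transcript length gave 1.42% for Myh7, 0.714% for Tnnt1, 0.581% for Tnni1 and 3.26% for Myl2. Without division by length the share was 0.856% for Tnni1, 1.11% for Atp2a2, 3.74% for Myl2 and 5.64% for Myoz2, and the longest transcript gave 3.24% for Myl2. Mybpc1 and Actn2 stood apart at 15.4% ± 1.58 and 8.51% ± 0.581 of their pairs, in all 3 libraries above every other pair. Both genes are known to be expressed in fast fibres as well. They were the largest slow members per kilobase, Mybpc1 at 320 ± 49.1 and Actn2 at 254 ± 23.7, against 113 ± 25.2 for Myl2, the next. The summed slow share therefore rests largely on Mybpc1 and Actn2, and both were highest in control 1.

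The libraries differed in their slow isoforms. The slow share was highest in control 2 for 9 of the 12 pairs and lowest in control 3 for 8. Tnnc1 measured 89.3, 114 and 37.3 by value in controls 1, 2 and 3, and Tpm3 measured 195, 232 and 81.6. Over the 10 slow fibre markers, the summed share of the signal was 0.161%, 0.208% and 0.102%, a range of 2.04-fold, whereas the 12 fast fibre markers gave 16.9%, 16.7% and 17.1%, a range of 1.03-fold. The 10 slow markers are the slow members of the 12 pairs other than Mybpc1 and Actn2. Their sum is therefore another view of the same genes. In bulk tissue, fewer cells of a type and less RNA per cell cannot be told apart. By value, 8 of the 12 slow members were lowest in control 3 as deposited, and 8 also with libraries scaled to the same total or by the median ratio. Over the 7347 genes with a mean of at least 10, control 3 was lowest for 26.4%, 34.1% and 30.2% under the same 3 scalings. By value, 9 of the 12 slow members were highest in control 2 under each scaling. Control 2 was the highest library for 27.1%, 52.5% and 34.9% of the 7347 genes.

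**Figure D3:**
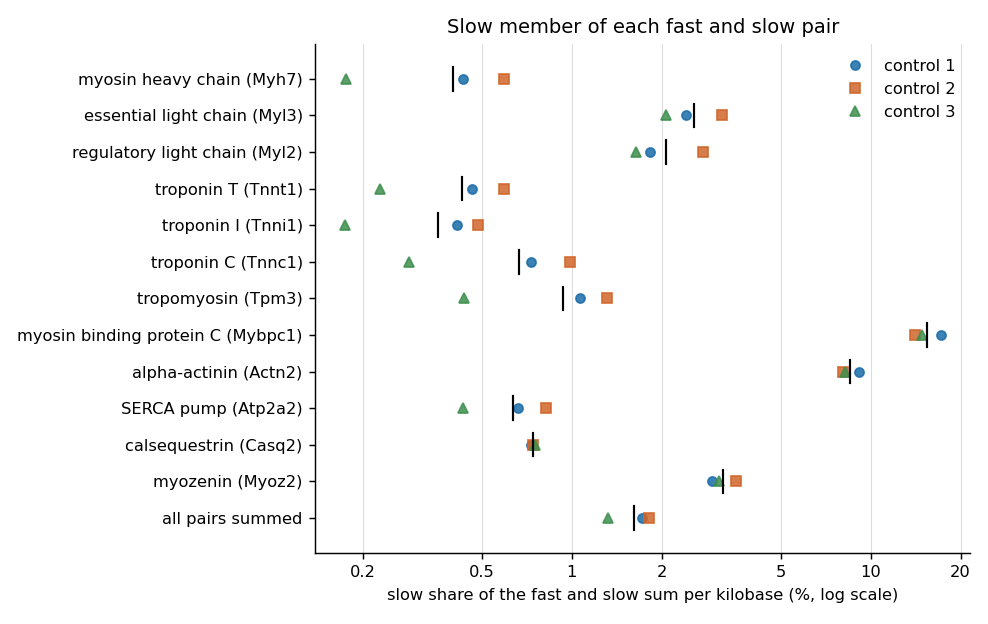
Slow member of each pair as a percentage of the fast and slow sum per kilobase (log axis), with 1 symbol per control library and a black bar at the mean. Control 3 (triangles) lies lowest in 8 of 12 pairs, while Mybpc1 and Actn2 lie above 8% in every library.

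The thick filament, thin filament and Z-disc lists together took 20.8% ± 0.158 of the signal. The 20 thick filament genes took 8.91%, 8.68% and 8.69%, the 21 thin filament genes 8.95%, 9.04% and 9.39% and the 30 Z-disc and cytoskeleton genes 2.84%, 2.96% and 2.89%. Apart from Myh4, the highest thick filament genes per kilobase were the light chains Mylpf (5399 ± 434) and Myl1 (4171 ± 324), whose ranges did not overlap. Their order depends on the division by length, because by value Myl1 (8650 ± 673) stood above Mylpf (5734 ± 460). The exon length was 2074 bases for Myl1 and 1062 for Mylpf, against longest transcripts of 1082 and 766. The highest Z-disc genes per kilobase were Tcap, which anchors titin (2819.5 ± 208), Actn3, the fast alpha-actinin (2729.5 ± 60.1), and Myoz1 (1093 ± 32.7). Tpm1 made up 61.0%, 68.5% and 66.6% of the tropomyosins per kilobase and Tpm2 33.6% ± 4.0. The mean Tpm1 share was higher with the other lengths. It was 75.7% with the longest transcript, 78.5% with the mean transcript length and 80.5% without division by length. Mylk2 and Mylk4, kinases of the light chains, made up 70.7% ± 2.33 and 28.8% ± 2.27 of their family per kilobase, but Mylk4 led when the mean transcript length was used (56.8%).

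The 32 genes of calcium handling and excitation took 5.34%, 5.40% and 5.35% of the signal. After Atp2a1 (9060.3 ± 347 per kilobase) and Pvalb (8624 ± 475), the highest was Casq1, the calcium store of fast fibres (1385 ± 51.9). Atp2a1 made up 99.3% ± 0.196 of the SERCA pumps, Casq1 99.3% ± 0.0106 of the calsequestrins and Ryr1, the calcium release channel, 99.97% of the 2 ryanodine receptors in the table. The small peptides that restrain the pump were scarce by comparison. Mrln, myoregulin, measured 55.1, 51.0 and 51.8 by value and made up 95% ± 0.775 of the peptides per kilobase, while Sln, sarcolipin, measured 1.36, 1.76 and 1.37 and Pln, phospholamban, 2.94, 3.69 and 3.32.

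The isoform families were mostly dominated by 1 gene. Of 62 families of isoforms, 59 had at least 2 members in the table, and the leading member made up at least 90% per kilobase in 35 of them and under 60% in 10. In all 59 the leading gene was above the next in every library, with no overlap. That order depended on the gene length in 6 families, because the other lengths tried put another gene first, while 53 had the same leader under 4 definitions of length. The 6 were AMPK gamma, the MEF2 factors, the PGC-1 coactivators, calcineurin A, the myosin light chain kinases and the nonmuscle myosins. Listed members with no row in the table, out of 199 listed, included the cardiac Tnni3, Mybpc3, Ryr2 and Myl7, the liver Pklr, Fbp1 and Gys2 and the brown fat Ucp1, and 184 were present.

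**Figure D4:**
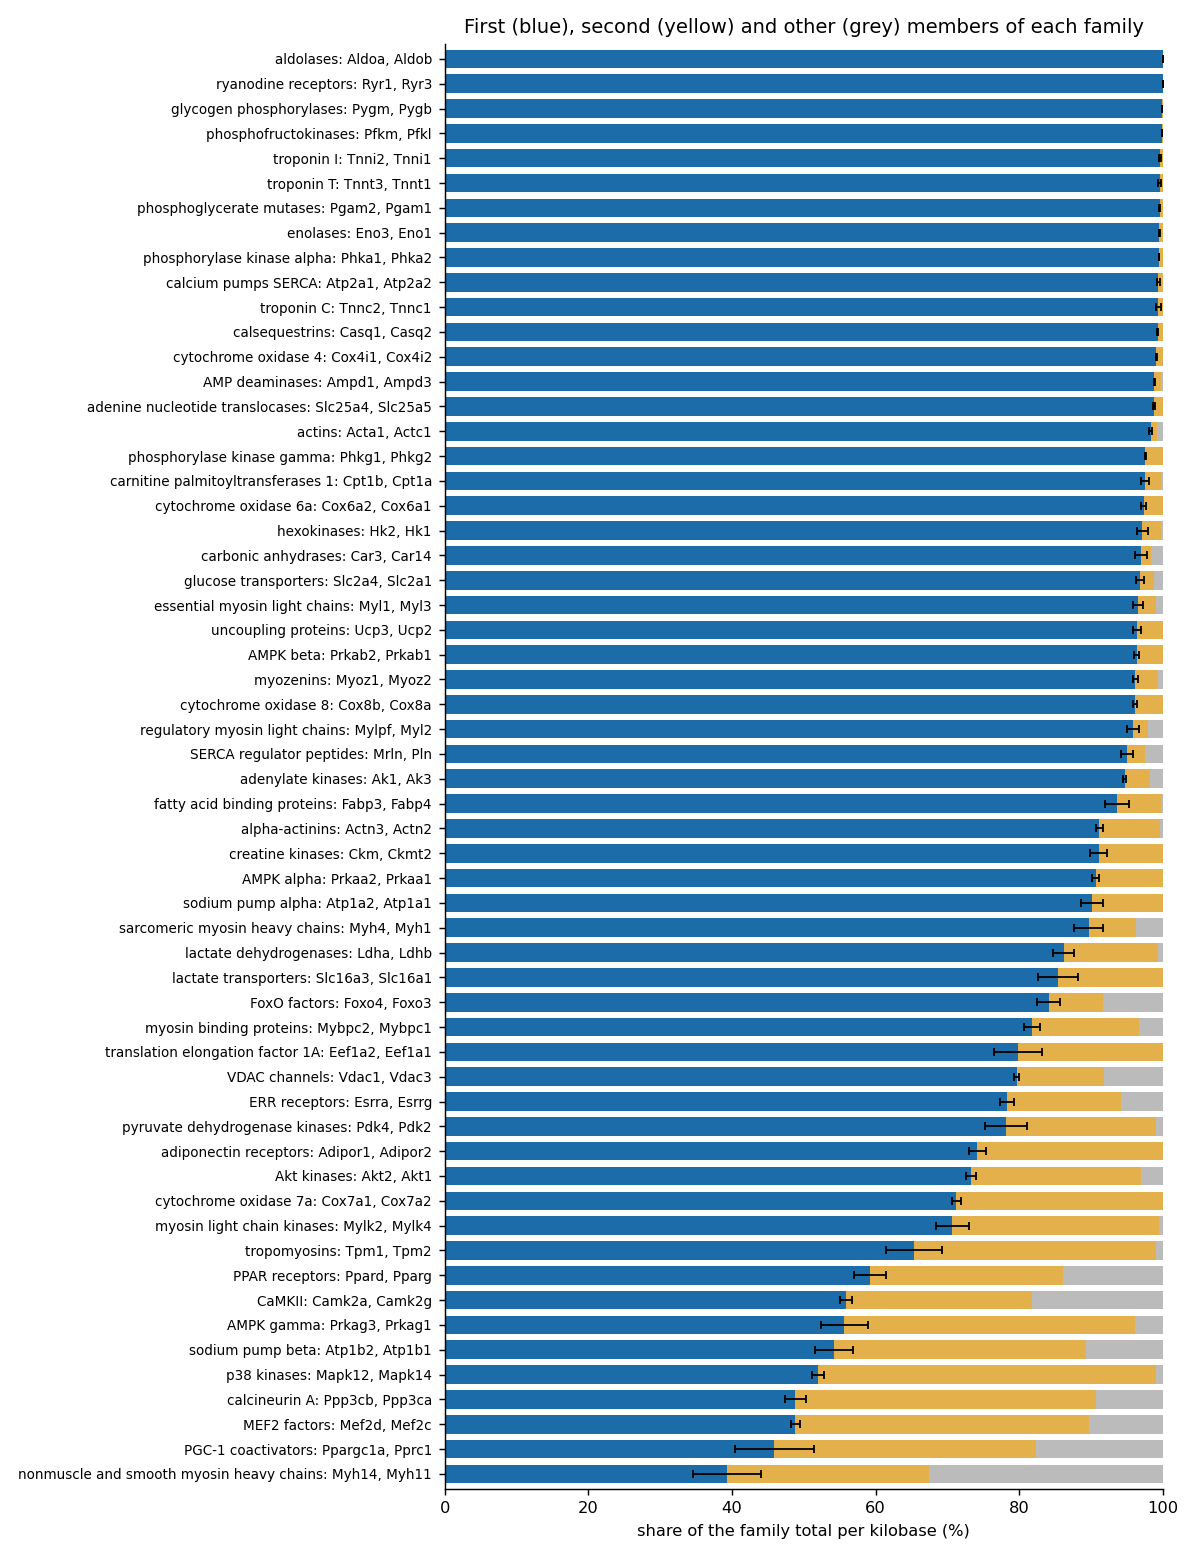
Share of each family total per kilobase (%) held by the leading gene (blue), the next gene (yellow) and all others (grey), as means of 3 control libraries; error bars are the SD of the leading share. Of the 59 families, 58 are drawn, sorted by the leading share, from the aldolases at the top to the nonmuscle myosins at 39.4%, with 35 at or above 90%.

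Energy supply without oxygen was carried by muscle isoforms. The 20 glycolysis genes took 4.02%, 3.83% and 3.84% of the signal and the 13 glycogen genes 1.24%, 1.25% and 1.18%. Per kilobase, Aldoa, the muscle aldolase, measured 6153 ± 232, Eno3, the muscle enolase, 2918 ± 298, and Pgam2, the muscle phosphoglycerate mutase, 1913 ± 136, and these 3 did not overlap. Pygm, which releases glucose units from glycogen, measured 2417 ± 113 per kilobase and made up 99.9% of its family, whereas the genes that build glycogen were lower on the same scale, with Ugp2 at 341 ± 3.29 and the primer Gyg at 185 ± 9.64. Pfkm made up 99.9% ± 0.0415 of the phosphofructokinases and Hk2 97.2% ± 0.739 of the hexokinases. Ldha, which favours lactate, made up 86.2% ± 1.45 and Ldhb 13.1% ± 1.36 of the lactate dehydrogenases. The lactate exporter Slc16a3 made up 85.4% ± 2.83 of the 2 transporters, the rest being the importer Slc16a1.

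The 10 phosphagen and adenylate genes took 2.47%, 2.42% and 2.55% of the signal. Ckm made up 91.1% ± 1.14 of the creatine kinases per kilobase and Ckmt2, the mitochondrial form, 8.89% ± 1.15, with Ckmt2 at 1332, 945 and 1121 by value. Ak1, which converts ADP to ATP and AMP, measured 514 ± 27.1 per kilobase and made up 94.7% of its family, and Ampd1, which deaminates AMP, made up 98.8%.

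Pdk4, the kinase that shuts glucose carbon out of the mitochondrion, was the leading gene around pyruvate dehydrogenase. It measured 3146, 2239 and 2285 by value and made up 81.4%, 77.1% and 76.0% of its family per kilobase, and control 1 stood above the others. Pdk2 made up 20.8% ± 2.80. Pdha1, a subunit of the enzyme that Pdk4 inhibits, measured 197 ± 19.9 per kilobase against 728 ± 146 for Pdk4, with no overlap.

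Nuclear genes of the respiratory chain stood below the mitochondrially encoded subunits per kilobase, mt-Nd6 excepted. The highest within each complex were Cox6a2 (854 ± 53.5) and Cox8b (721 ± 42.8) of complex IV, Atp5a1 (716 ± 58.6) and Atp5b (617 ± 59.1) of complex V, Ndufb9 (361 ± 30) of complex I and Uqcr10 (319 ± 24.0) of complex III. The summed shares of the signal were 0.673% ± 0.0303 for 38 complex I genes, 0.273% ± 0.0147 for 9 complex III genes, 0.359% ± 0.0136 for 15 complex IV genes and 0.860% ± 0.0415 for 16 complex V genes. Muscle forms of complex IV subunits dominated their ubiquitous partners, with Cox6a2 at 97.3% and Cox8b at 96.2%, but less so for Cox7a1 at 71.3% ± 0.632. Mb, the oxygen store myoglobin, measured 2740.2, 2022 and 2624 by value and was the highest gene per kilobase of the antioxidant and metal list (1650.3 ± 258).

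Genes of the citric acid cycle and of fat oxidation were highest in control 1. All 21 citric acid cycle genes had their highest value in control 1 and their lowest in control 2, and all 24 genes of fatty acid uptake and oxidation had their highest in control 1. Among the 7347 genes with a mean of at least 10, control 1 was the highest library for 39.5% and control 2 the lowest for 44.9%. When libraries were scaled to the same total, control 1 remained the highest for 21 of 21 and 23 of 24 genes, and control 2 was the lowest for 12 of 21 citric acid cycle genes. Under that scaling, control 1 was the highest library for 23.4% of the 7347 genes and control 2 the lowest for 19.7%. Lists close to these leaned the same way. As deposited, control 1 was highest for 12 of 13 mitochondrially encoded proteins, 8 of 9 complex III and 13 of 16 complex V genes. It was also highest for 11 of 13 pyruvate dehydrogenase genes, 26 of 38 complex I genes and 8 of 15 complex IV genes. With the same total these counts were 10, 7, 12, 9, 24 and 7. The shares of the signal were 1.01%, 0.907% and 0.925% for the cycle and 0.785%, 0.675% and 0.678% for fat oxidation. Among the highest per kilobase were Mdh1 (226 ± 26.2) and Sdha (225 ± 21.8) of the cycle, and Fabp3, the muscle fatty acid binding protein (1273 ± 148), Acadl (262 ± 29.0) and Acadvl (186 ± 23.3) of fat oxidation.

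Cpt1b, the gate for fatty acids into the mitochondrion, measured 375, 319 and 315 by value and made up 97.5% ± 0.531 of its family per kilobase, although 78.5% of the 51-base windows of its exons also belong to an overlapping annotated gene, Gm44502, that is not in the table. Ucp3 made up 96.4% ± 0.508 of the uncoupling proteins. Of the lipid storage genes, the lipase Pnpla2 was highest per kilobase (133 ± 4.70), then Lpl (99.1 ± 10.4) and Plin4 (60.4 ± 8.02). Of the lipogenic genes, Me1 (109.7 ± 6.60) and Acacb (38.2 ± 2.68) varied little, whereas Scd1 measured 64.3, 209 and 196 by value, with control 1 low. Scd1 is also on the adipocyte marker list, of which 11 of 12 genes were lowest in control 1, and the part of fat cells in its difference was not tested.

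Genes of insulin action and energy sensing also showed leading isoforms. Slc2a4, the insulin-responsive glucose transporter GLUT4, measured 416, 374 and 401 by value and made up 96.9% ± 0.529 of its family per kilobase. Akt2 made up 73.3% ± 0.749 of the Akt kinases. The AMPK subunits were Prkaa2 (90.6% ± 0.506), Prkab2 (96.3% ± 0.323) and, with Prkag3 at 55.7% ± 3.24 and Prkag1 at 40.5% ± 3.01, a divided gamma subunit, all per kilobase. With the mean transcript length Prkag1 led the gamma subunits with 47.2%. Mapk12 and Mapk14, which encode p38γ and p38α, measured 139.9, 138 and 152 and 143, 149 and 157 by value. Mapk12 made up 52.0% ± 0.815 and Mapk14 47.2% ± 0.792 of the p38 family per kilobase, and without division by length Mapk14 led with 50.7%. Mapk11, encoding p38β, made up 0.888% ± 0.242, and Mapk13 had no row.

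Among factors that set muscle identity, the highest per kilobase were the myogenic factor Myf6 (79.7 ± 6.62), Tbx15 (54.3 ± 1.90) and Mef2d (41.5 ± 1.59). Mef2d made up 48.8% ± 0.656 of its family per kilobase of exon and Mef2c 40.9% ± 0.561, and with the longest transcript as length Mef2c led with 55.7%. Esrra made up 78.3% ± 0.964 of the ERR receptors, Ppard 59.2% ± 2.17 of the PPAR receptors and Foxo4 84.1% ± 1.61 of the FoxO factors. Ppargc1a, encoding PGC-1α, a coactivator of mitochondrial genes, measured 28.7, 30.4 and 23.7 by value. Nr1d1, the clock repressor REV-ERBα, was the highest per kilobase of both the nuclear receptor and the clock list, at 54.8 ± 8.58, with control 2 low (178, 139 and 189 by value).

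Genes for secreted factors were also read in this bulk tissue, where their signal cannot be assigned to muscle fibres or to other cells. Per kilobase the highest of the myokine list were Sparc (96.1 ± 23.0) and Dcn (79.1 ± 11.1), matrix proteins that other cells make as well, and Vegfb (56.8 ± 1.71). Fgf21, Il6, Gdf15 and Lif were not in the table. Il15, named in the series title and given here outside the naming rule, after its values were seen, measured 7.72, 5.08 and 5.01 by value, at rank 8853 of 13179 genes. Mstn, myostatin, measured 47.2, 54.5 and 51.7 and was likewise outside the rule. Among hormone and cytokine receptors, Adipor1 (68.2 ± 3.38 per kilobase) and Adipor2 (23.7 ± 0.540), which bind adiponectin, and Il6st (17.3 ± 0.591) were highest.

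The 24 genes of atrophy and protein breakdown took 0.600%, 0.524% and 0.598% of the signal. Ubb, which encodes ubiquitin (514 ± 17.7), and the autophagy receptor Sqstm1 (233 ± 11.2) were among the highest per kilobase. The highest chaperones per kilobase were Hsp90ab1 (473 ± 8.66), Cryab (407 ± 33.5) and Hspb6 (325 ± 43.8). Selenow (1040.3 ± 52.3) and Fth1, the heavy chain of the iron store ferritin (424 ± 19.4), followed Mb among the antioxidant and metal genes. The 82 ribosomal protein genes took 1.29%, 1.37% and 1.39% of the signal, led per kilobase by Rplp1 (678 ± 47.6), Rps3a1 (408 ± 28.4) and Rplp0 (374 ± 12.6). The neuromuscular junction genes were low, the highest being Rapsn (13.5 ± 0.405 per kilobase), Ufsp1 (10.8 ± 1.49) and Chrnb1 (10.1 ± 0.744).

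Markers of cell types other than muscle fibres took 0.513% ± 0.118 of the signal, summed over 11 lists. The shares of the single lists in controls 1, 2 and 3 were 0.179%, 0.251% and 0.183% for fibro-adipogenic progenitors, 0.0555%, 0.0728% and 0.0622% for smooth muscle and pericytes, 0.0513%, 0.0553% and 0.0511% for endothelium, and 0.0380%, 0.0526% and 0.0403% for tenocytes. Macrophage markers took 0.0137%, 0.0182% and 0.0128% and satellite cell markers 0.00712%, 0.00717% and 0.00671%. None of the 9 lymphocyte markers was in the table, and of 6 neutrophil markers only Cxcr2 was, at 0.749, 0.375 and 0.238 by value. Several listed genes, such as Gsn (283 ± 52.6 per kilobase) and Dcn, are not confined to 1 cell type, and the sum without the fibro-adipogenic progenitor list was 0.309%.

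Among lists with at least 2 genes in the table, Schwann cell, erythroid and adipocyte markers had the widest ranges between libraries. Adipocyte markers took 0.0367%, 0.0827% and 0.0681% of the signal, a range of 2.25-fold, and 11 of 12 were highest in control 2 and 11 lowest in control 1. Adipoq, the fat cell hormone adiponectin, measured 8.08, 42.6 and 41.9 by value and Lep, leptin, 3.34, 33.0 and 29.2. Schwann cell markers took 0.0101%, 0.0378% and 0.0260%, a range of 3.75-fold, with all 9 highest in control 2 and lowest in control 1. Erythroid markers took 0.0196%, 0.0643% and 0.0356%, a range of 3.28-fold, with all 5 in the same order. They were led by Hba-a1 at 96.1, 286 and 176. Hba-a1 shares 72.1% of its 51-base windows with Hba-a2, and reads from those windows could be assigned to either. Among the 7347 genes with a mean of at least 10, control 2 was the highest library for 27.1% and control 1 the lowest for 28.7%. The counts were the same under both other scalings, where the shares of all genes were 52.5% and 46.2% with the same total and 34.9% and 34.9% with the median ratio. Fibro-adipogenic progenitor markers were also highest in control 2, for 13 of 13, and macrophage markers for 14 of 16. Whether the marker lists bear on the levels of the other genes was not tested.

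**Figure D5:**
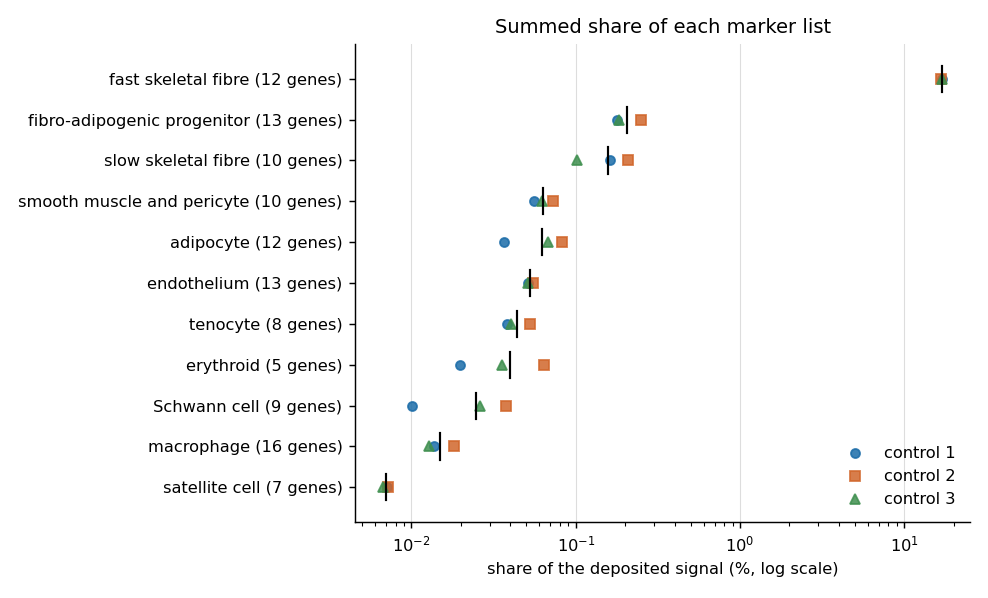
Share of the deposited signal (%, log axis) summed over each marker list, with 1 symbol per control library and a black bar at the mean. Only lists with at least 2 genes in the table are drawn. Among them the sum is highest in control 2 (squares) for all but the fast fibre list. With libraries scaled to the same total, control 2 was also highest for 52.5% of the 7347 genes with a mean of at least 10. It was then highest for only 2 of 7 satellite cell and 6 of 13 endothelium genes. Control 1 (circles) is far below the others in the adipocyte, erythroid and Schwann cell lists.

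Few genes of any abundance varied strongly between the controls. Of 7347 genes with a mean value of at least 10, 97 (1.32%) had an SD above 30% of the mean, and the median SD was 5.77% of the mean. Of the 97, 60 (61.9%) were highest in control 2 and 52 (53.6%) were lowest in control 1, against 27.1% and 28.7% of the 7347 genes. Without control 3 the count was 171, over the same threshold but from 2 libraries, and without control 1 or control 2 it was 90 and 86. The count also depends on the floor, with 648 genes at a mean of at least 1 and 30 at a mean of at least 50.

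Of the 15 most variable genes, Mup20 and Alb, secreted proteins of the liver, were high in control 1, with Mup20 at 24.4, 8.24 and 4.36 by value and Alb at 57.1, 19.7 and 11.5. Fat cell genes were low in control 1, and besides Lep and Adipoq they were Cidec (5.49, 41.7 and 33.7), Cfd (12.3, 56.7 and 31.1) and Sncg (5.33, 24.4 and 23.0). Hp, a haemoglobin scavenger that fat and liver also make, measured 6.46, 71.9 and 87.2, and Nnat 2.77, 25.7 and 17.1. The globin Hbb-bt, which shares 58.2% of its 51-base windows with Hbb-bs, measured 13.3, 53.4 and 22.0. Cish, a feedback inhibitor of cytokine signals, was low in control 3 alone (40.4, 51.8 and 5.18), whereas Nmrk2, which makes NAD in muscle, and Gadd45g were high there, at 36.9, 28.6 and 104 and at 57.7, 25.1 and 99.0. Kcnf1 and Ifi27l2a completed the group, with 8.08, 21.8 and 6.48 and with 3.18, 14.5 and 13.3. The rule picked them for their spread, so that spread is a description.

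At the other end, the 10 least variable genes with a mean of at least 100 had an SD of 0.0534% to 0.42% of the mean. They were Vapa, Epb41, Rragd, Tmbim6, Kpna1, Zdhhc5, Kif1c, Usp13, Grina and Atp6ap1. Vapa, a membrane contact protein of the endoplasmic reticulum, measured between 129.9 and 130.1 by value in the 3 libraries. Counting alone gives 1.99% to 2.08% at a value of 100, so the order of these genes is not resolved.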

How the data were processed

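Polyadenylated RNA of gastrocnemius was sequenced as 51-base single reads from 100 ng of total RNA with a RIN above 8, using a stranded kit, per the labels' protocols. Tools named, per the submitters' processing notes, are RSEM 1.3.1, limma, cutadapt and CASAVA 1.8, with the build GRCm38; the order, annotation and scaling are not given in the sources used here. The authors deposited 1 signal value per gene and library, named normalised counts. The implied depths come from the step size of the values; the reads were not tested as counts. The 6 knockout columns were not used, and no column was left unmapped.

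Gene models were GENCODE M21 (13172 identifiers matched; 111 rows had no symbol). Values per kilobase divide by the union of exons. Analyses used Python 3.11.15, pandas 2.3.3, numpy 2.4.6 and matplotlib 3.10.9. There was 1 group, so nothing was tested. Shares and spreads were checked on simulated data. Genes were named by rule: the 20 highest by value and per kilobase, members of the isoform families and pairs, the 3 highest per kilobase of each list with absent members, the 15 most variable with a mean of at least 10 (no predicted genes or pseudogenes) and the 10 least variable with a mean of at least 100. Some genes that the rule names are not reported here. Members and lists were chosen with earlier results of these data known. Levels between genes assume that reads spread evenly over exons. Alternatives changed the gene length, scaling, filters, denominator, an offset of the smallest value, and the libraries.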

Additional observations from a re-analysis of the deposited data

How the results depend on the processing

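Leaving out each library in turn gave 26.2% to 26.7% for the 10 highest genes, 58 to 64 genes for 50% of the signal, 13.5% to 14.0% for mitochondrial genes, 20.7% to 20.8% for the 3 sarcomere lists, 3.83% to 3.93% for glycolysis, 0.449% to 0.564% for markers of other cells, 88.7% to 90.7% for the Myh4 share, 1.52% to 1.77% for the slow share, 35 families led by at least 90% each time, and 86 to 171 genes with a spread over 30%. Subtracting the smallest value of each library, run for the first 8 of these results, moved each share by less than its SD and left the gene count at 62. Division by exon length gave 39.4%, 16 genes, 26.5%, 17.4%, 3.10% and 0.387% for the first 6 results in that order. With nuclear protein-coding genes as denominator, the 10 highest genes took 25.2%, 143 genes held 50%, the sarcomere lists took 25.9%, glycolysis 4.86% and other cells 0.639%; this denominator gives no value for mitochondrial genes. Adding the nuclear copies, chosen after seeing the data, gave 27.2% for the 10 highest genes and 18.9% for mitochondrial genes, and leaving out the fibro-adipogenic progenitor list gave 0.309%. With the mean transcript length the Myh4 share was 85.1% and the slow share 2.17%, and without length the slow share was 2.24%. The spread count was 648 and 30 with minimum means of 1 and 50, and 303 and 29 with thresholds of 20% and 50%. Of 100 alternatives for the 20 highest single genes, 100 stayed within 1 SD. This count says nothing about robustness, because leaving out 1 of 3 libraries cannot move a mean by 1 SD. The other alternatives rescaled the libraries in both directions by factors between 0.973 and 1.04, which hardly moves a mean. No paired analysis was possible because a single group was described. The depth leaves genes under a value of about 0.13 indistinguishable from no reads, and 3 libraries limit every SD.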

Other observations

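By chromosome, nuclear protein-coding signal was uneven. Chromosome 7, with 7.77% of the nuclear protein-coding genes in the table, took 17.9% ± 0.176 of their signal (SD, n = 3) and held 7 of the 20 and 11 of the 100 highest of these genes by value. Chromosome 11, with 8.37% of the genes, took 13.7% ± 0.195 and held 14 of the 100 highest, whereas chromosome 5, with 6.26% of the genes, took 3.66% ± 0.0171 and held 1. These shares are descriptions and were not tested.

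The 100 nuclear protein-coding genes highest by value had a median exon length of 3494 bases, against 4556.5 for all such genes in the table. Their median SD over the 3 libraries was 5.34% of the mean, against 7.85%. By gene class, protein-coding genes took 93.3% ± 0.223 of all signal, pseudogenes 5.40% ± 0.222 and long intergenic RNAs 0.479% ± 0.00349, and the pseudogene share was almost all from the copies of mitochondrial genes (5.17% ± 0.224).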
